A study of Mus musculus with 6 samples.

Results

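The transcription factors described here are 9 genes that set or mark the identity of myeloid cells: Sall1, Mef2c, Maf, Spi1, Runx1, Irf8, Cebpb, Hif1a and Bhlhe40. They were chosen by symbol, as 9 of the 38293 gene IDs counted in each of 6 droplet libraries, and all 9 were found; Spi1 is listed in the files as Sfpi1 and was matched by its gene ID. The libraries hold single CD11b+ cells sorted from the spinal cord of C57BL/6 mice aged 10 weeks. Before sorting, the cells were loaded with DCFDA at 10 µM, a dye that fluoresces when oxidised by reactive oxygen species (ROS), and with 1 µM sytox blue to leave out dead cells. The first group, EAE ROS+, holds dye-positive cells of mice at the onset (score 1) of experimental autoimmune encephalomyelitis (EAE), induced with the myelin peptide MOG35-55. The second, EAE ROS-, holds dye-negative cells of mice at the same stage, and the third, Healthy ROS-, holds dye-negative cells of healthy mice. Each group has 2 libraries, and the labels do not say that these came from separate animals, so p-values measure only the spread between these samples.

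Microglia enter the brain and spinal cord from the yolk sac in the embryo and keep themselves there, while monocytes arrive from the blood in inflammation and become macrophages. Both lineages need PU.1, the product of Spi1, and its partners IRF8 and RUNX1, which open and hold macrophage enhancers. SALL1 and MEF2C mark and maintain the resting microglial programme, and MAF holds tissue macrophages in a quiet, self-renewing state. C/EBPβ drives inflammatory gene programmes, HIF-1α turns on glycolysis and angiogenic genes when oxygen is short or cells are activated, and BHLHE40 is a repressor that sustains proliferation and cytokine production in macrophages and T cells.

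The genes lie on 6 chromosomes in the GRCm38 annotation. Sall1 (ENSMUSG00000031665) spans chr8:89027235-89044162 on the minus strand, Mef2c (ENSMUSG00000005583) spans chr13:83504034-83667080 on the plus strand, and Spi1 (ENSMUSG00000002111) spans chr2:91082390-91115756 on the plus strand; these 3 overlap no other annotated gene. The other 6 each overlap an annotated gene: Cebpb (chr2:167688915-167690418), Hif1a (chr12:73901375-73947530), Irf8 (chr8:120736358-120756694), Maf (chr8:115682942-115707794), Runx1 (chr16:92601466-92826149) and Bhlhe40 (chr6:108660629-108666925). The sources used here do not state whether counting took strand into account.

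Promoters are shown for 4 members whose levels differ between the cell classes below, as the 250 bases before the start farthest upstream in the RefSeq table (build GRCm38.p6). Capitals mark matches on either strand to the motifs searched.
Sall1, chr8:89044163-89044412, minus strand: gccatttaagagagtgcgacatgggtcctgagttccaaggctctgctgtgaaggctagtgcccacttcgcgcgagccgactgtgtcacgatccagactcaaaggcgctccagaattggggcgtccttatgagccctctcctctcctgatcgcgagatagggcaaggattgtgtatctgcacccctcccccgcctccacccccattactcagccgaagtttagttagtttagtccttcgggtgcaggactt
Mef2c, chr13:83503784-83504033, plus strand: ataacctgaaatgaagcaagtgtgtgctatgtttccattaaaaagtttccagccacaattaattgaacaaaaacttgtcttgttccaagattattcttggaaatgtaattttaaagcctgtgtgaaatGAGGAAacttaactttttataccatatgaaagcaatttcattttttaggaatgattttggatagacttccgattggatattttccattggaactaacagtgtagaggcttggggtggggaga
Irf8, chr8:120736108-120736357, plus strand: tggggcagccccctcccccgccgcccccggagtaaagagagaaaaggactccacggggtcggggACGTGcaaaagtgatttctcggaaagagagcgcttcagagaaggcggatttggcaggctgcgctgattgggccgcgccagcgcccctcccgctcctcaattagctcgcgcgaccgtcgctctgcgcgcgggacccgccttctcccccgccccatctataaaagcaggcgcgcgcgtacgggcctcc
Hif1a, chr12:73907617-73907866, plus strand: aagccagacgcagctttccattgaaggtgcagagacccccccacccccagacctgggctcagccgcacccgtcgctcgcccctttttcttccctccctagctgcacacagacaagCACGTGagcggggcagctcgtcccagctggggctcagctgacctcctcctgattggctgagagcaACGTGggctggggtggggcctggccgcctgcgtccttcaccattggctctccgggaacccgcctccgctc

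The motifs were GAGGAA (the PU.1 core), TTGCNNAA (the C/EBP palindrome), CACGTG (the E-box of the BHLHE40 family), ACGTG (the hypoxia response core, which also lies within that E-box), TGTGGT (the RUNX core) and the interferon-stimulated response element bound by IRF factors. Mef2c held 1 GAGGAA, a motif present in 23.3% of 32851 promoter windows of this length. Irf8 held 1 ACGTG, present in 16.6% of them. Hif1a held 1 CACGTG, present in 6.02%, and 3 matches to ACGTG, of which 2 lie within that CACGTG. The Sall1 window held none of the 6 motifs; TTGCNNAA, TGTGGT and the IRF element, absent from all 4 windows, occur in 9.56%, 14% and 2.98% of windows. By base composition the windows differ widely, with a GC content of 33.6% for Mef2c, 56.4% for Sall1, 66.4% for Hif1a and 67.2% for Irf8, against a median of 52.4%. The window of Cebpb, searched but not shown, held none of the 6 motifs and had a GC content of 81.6%. Counted from upstream, start 2 of Mef2c also held 1 GAGGAA and start 3 held none, while start 2 of Irf8 held no ACGTG. Of the members, 6 had an entry in the table; Maf, Spi1 and Bhlhe40 are named only.

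The 6 libraries held 9079 barcodes, 8701 cells being the number in the design text, and 71869176 unique molecular identifiers (UMIs, each standing for 1 captured transcript). Library totals ran from 915197 to 23407825 UMIs, and the median per cell ran from 5467 to 9543 in the 4 EAE libraries and was 2178 and 3617.5 in the healthy ones. Cells were put into classes by marker UMIs, none of the markers being a member. Microglia-like cells (Tmem119, P2ry12 and 8 others) numbered 40 and 22 in the EAE ROS+ libraries, 627 and 262 in the EAE ROS- libraries, and 1722 and 174 in the healthy ones. Monocyte-derived-like cells (Ccr2, Ly6c2, Plac8 and 9 others) numbered 1513 and 2082 in the EAE ROS+ libraries and 643 and 991 in the EAE ROS- libraries, with none in healthy cord. Dendritic-like cells (Flt3, Ccr7, Ccl22 and 8 others) numbered 1 in each EAE ROS+ library, 54 and 58 in the EAE ROS- libraries and 0 in healthy cord. Healthy ROS- replicate 2 is the smallest library, with 202 cells, 25 of which carried endothelial markers and were left out of the classes.

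Levels below are CPM, UMI counts scaled to a total of 1000000 in each library or class, so fewer cells of a type and less RNA of a gene per cell cannot be told apart in sums over all cells. Groups or gates said not to overlap hold 2 libraries each, so this describes those libraries only. The share of all genes that do not overlap was not computed. Fold changes come from edgeR's quasi-likelihood test on the summed counts with TMM scaling, are given on the log2 scale with the standard error (SE), and are called at a Benjamini-Hochberg adjusted p under 0.05 over all genes tested. Fits over all cells and over microglia-like cells took in all 6 libraries, so each comparison also used the spread of the remaining group. The other fits used the 4 EAE libraries. Those between classes or states, and the interaction, had library as a block.

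Within microglia-like cells, the factors of the resting programme were lower in EAE ROS- than in Healthy ROS- libraries, and 3 factors of inflammation and hypoxia were higher. Of the 9 members 7 passed the test, 3 higher and 4 lower, where 32.9% of the 9524 genes tested did. Maf fell most among the 4 lower members, and Bhlhe40 rose most among the 3 higher ones. Irf8 and Spi1 did not pass.

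Sall1, the zinc finger factor that among spinal cord myeloid cells is typical of microglia, had 50.005 and 58.0 CPM in EAE ROS- microglia-like cells, against 177 and 163 CPM in Healthy ROS-. Its EAE values lie well below both healthy ones, a log2 change of -1.45 (SE 0.211, edgeR adjusted p = 3.06e-05). Maf, the b-ZIP factor of quiet macrophages, had 68.6 and 53.6 CPM in EAE ROS- and 521 and 402 CPM in Healthy ROS-. It was 6.38-fold lower in disease, a log2 change of -2.67 (SE 0.235, edgeR adjusted p = 6.11e-08), and the groups did not overlap. Mef2c, the MADS-box factor that restrains microglial inflammatory responses in mice, had 163 and 144 CPM in EAE ROS- and 411 and 463 CPM in Healthy ROS-. The groups did not overlap, and the log2 change was -1.28 (SE 0.248, edgeR adjusted p = 0.000547).

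Runx1, which shapes early microglial development, had 90.4 and 100 CPM in EAE ROS- microglia-like cells, against 187 and 163 CPM in Healthy ROS-. The log2 change was -0.67 (SE 0.215, edgeR adjusted p = 0.0226), and the call was lost without EAE ROS- replicate 1 (adjusted p = 0.133), without EAE ROS- replicate 2 (0.0605) and without Healthy ROS- replicate 1 (0.109). It was also lost without the low count filter (0.0565) and with a stricter gate (0.0549), and its direction was down in each of those fits.

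Among the factors that rose, Cebpb, the gene of C/EBPβ, had 936 and 1320 CPM in EAE ROS- microglia-like cells and 716 and 277 CPM in Healthy ROS-. Both EAE values were above both healthy ones, though the healthy libraries themselves differed widely, and the log2 change was 1.39 (SE 0.308, edgeR adjusted p = 0.00179). Hif1a had 146 and 157 CPM in EAE ROS- and 63.0 and 44.5 CPM in Healthy ROS-, a log2 change of 1.66 (SE 0.225, edgeR adjusted p = 1.37e-05) with no overlap. Bhlhe40 was close to undetected in healthy microglia-like cells. It had 34.4 and 49.2 CPM (240 and 101 UMIs) in EAE ROS- and 0.683 and 1.43 CPM (3 and 1 UMIs) in Healthy ROS-. The fitted log2 change was 5.84 (SE 0.548, edgeR adjusted p = 1.5e-07). With so few healthy UMIs the plain ratio of summed counts is the safer size, 48.1-fold higher in EAE ROS- with an exact 95% counting interval of 18.6 to 177 that leaves out the spread between libraries.

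Irf8, the partner of PU.1, had 580 and 603 CPM in EAE ROS- microglia-like cells and 603 and 703 CPM in Healthy ROS-. Spi1 itself had 400 and 383 CPM in EAE ROS- and 457 and 436 CPM in Healthy ROS-. Neither passed the test (log2 change 0.07, SE 0.216, adjusted p = 0.834 for Irf8, and 0.03, SE 0.209, adjusted p = 0.931 for Spi1 with edgeR). Both signs depend on the scaling: under scaling by the library total the log2 changes were -0.14 for Irf8 and -0.19 for Spi1. The median over all genes was -0.27 under that scaling, against -0.03 with TMM.

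**Figure D1:**
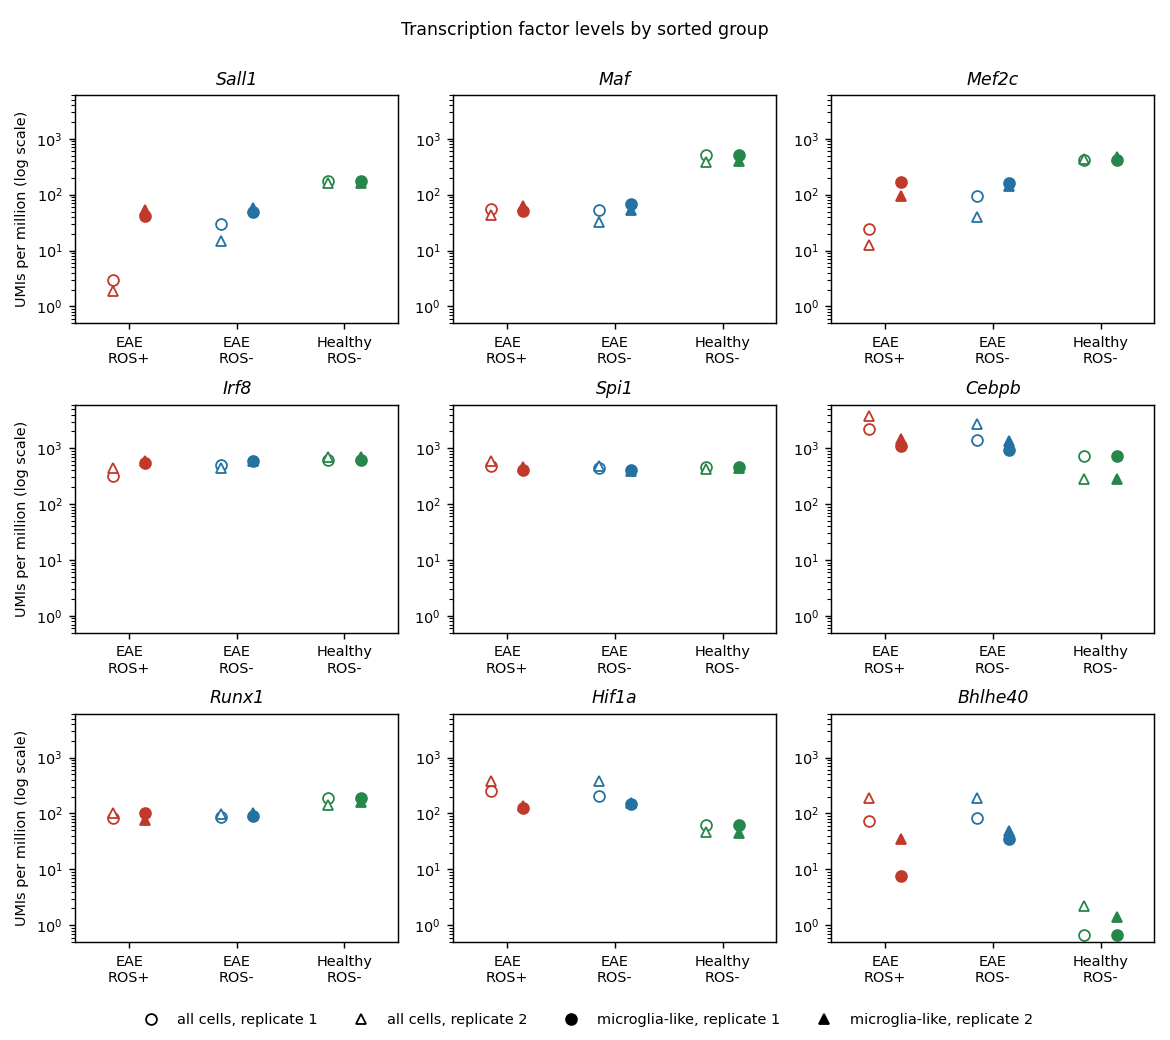
Level of each factor in CPM (log scale, the same in all panels) by sorted group, in sums over all cells (open symbols) and over microglia-like cells (filled symbols); circles are replicate 1 and triangles replicate 2. Sall1, Maf and Mef2c sit highest in Healthy ROS-, where Bhlhe40 sits lowest in both kinds of sum.

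Depth and monocyte-derived RNA moved with the disease difference in microglia-like cells. The median depth of these cells was 7965 and 5604 UMIs in EAE ROS- and 2200 and 3495.5 UMIs in Healthy ROS-. The 12 monocyte-derived markers summed to 11.4 and 12.9 per 10000 UMIs in EAE ROS- microglia-like cells and 0.369 and 0.373 in Healthy ROS-. As a share of their level in the monocyte-derived-like cells of the same library, these markers stood at 20.1% and 15.1% in EAE ROS- microglia-like cells. By the same measure Bhlhe40 stood at 29.8% and 22.9%, Cebpb at 43.7% and 38.5%, and Hif1a at 52.6% and 34.6%. The 10 microglia markers summed to 95.5 and 92.4 per 10000 in EAE ROS- cells, against 202 and 239 in healthy ones. Of the 6 border macrophage markers 4 and 2 were detected in EAE ROS- cells and 4 and 1 in healthy ones, with Cd163 and Lyve1 at 0 in these 4 sums and list totals of 2.58 and 11.7 CPM in EAE ROS- and 3.41 and 1.43 CPM in Healthy ROS-. The 8 endothelial markers summed to 31.4 and 34.6 CPM in EAE ROS- and 13.9 and 291 CPM in Healthy ROS-, and their part in the result was not tested.

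Microglia-like cells with under 5 monocyte-derived marker UMIs per 10000, a limit chosen after seeing the data, numbered 280 and 71 in the EAE ROS- libraries and 1682 and 172 in the healthy ones. Those markers then stood at 5.15% and 3.65% of the monocyte-derived-like level in EAE ROS-. They still summed to 2.93 and 3.13 per 10000 UMIs there, against 0.262 and 0.332 in the healthy cells under the limit. The EAE ROS+ libraries had 3 and 1 cells under the limit and were left out of the fit. In that fit 1236 of 9134 genes tested were higher and 998 lower. Of the 9 members 6 passed in the cells under the limit, Sall1 (log2 change -1.28), Maf (-2.58), Mef2c (-0.78), Cebpb (0.86), Hif1a (1.16) and Bhlhe40 (4.69). Runx1 did not pass (edgeR adjusted p = 0.0758). Bhlhe40 had 17.0 and 25.0 CPM there in EAE ROS-, against 0.695 and 1.44 CPM in Healthy ROS-, a ratio of counts of 23 with an exact counting interval of 8.38 to 88. Bhlhe40 stood at 14.7% and 11.7% of its monocyte-derived-like level, Cebpb at 29.9% and 29% of its own, and Hif1a at 37% and 24.8%. Maf had 75.5 and 50.05 CPM in the EAE ROS- cells and 515 and 399 CPM in the healthy ones, with no overlap. Hif1a had 103 and 113 CPM in EAE ROS- and 63.0 and 41.9 CPM in Healthy ROS-, again with no overlap. Cebpb did overlap on the plain scale, with 642 and 994 CPM in EAE ROS- and 719 and 279 CPM in Healthy ROS-.

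Each cell was also thinned to 2000 UMIs, which leaves out shallower cells, and for the fits the classes were set again from the thinned counts. Microglia-like cells then numbered 258 and 127 in the EAE ROS- libraries and 1027 and 173 in the healthy ones, so class membership changed along with depth. The EAE ROS+ libraries had 9 and 6, under the minimum of 20, and were left out. The spread in this fit thus came from the EAE ROS- and healthy libraries alone. Of 5459 genes tested in thinned cells 618 were higher and 465 lower. Of the members tested 2 passed, Sall1 (log2 change -1.02) and Maf (-2.37). Mef2c (-0.77, edgeR adjusted p = 0.0504), Hif1a (1.09, adjusted p = 0.0523), Cebpb (0.78, adjusted p = 0.142) and Runx1 (-0.36, adjusted p = 0.371) kept their direction without passing, and Bhlhe40 had too few UMIs to be tested. For shares of cells with a UMI the classes of the full counts were kept. In thinned cells Maf was seen in 12.8% and 9.92% of EAE ROS- microglia-like cells and in 55.9% and 53.8% of healthy ones. Unthinned, those shares were 42.9% and 30.9% of EAE ROS- cells and 66.0% and 73.0% of healthy ones. Sall1 was seen in 11.005% and 14.1% of thinned EAE ROS- microglia-like cells, against 28.6% and 28.8% of healthy ones, while unthinned shares were 36.4% and 33.2% of EAE ROS- cells and 34.5% and 43.1% of healthy cells. In monocyte-derived-like cells, which should lack it, that share was 0.311% and 0% in EAE ROS-. These shares rest on 1051 of 1722 and 160 of 174 healthy microglia-like cells and on all 627 and 262 of EAE ROS-.

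**Figure D2:**
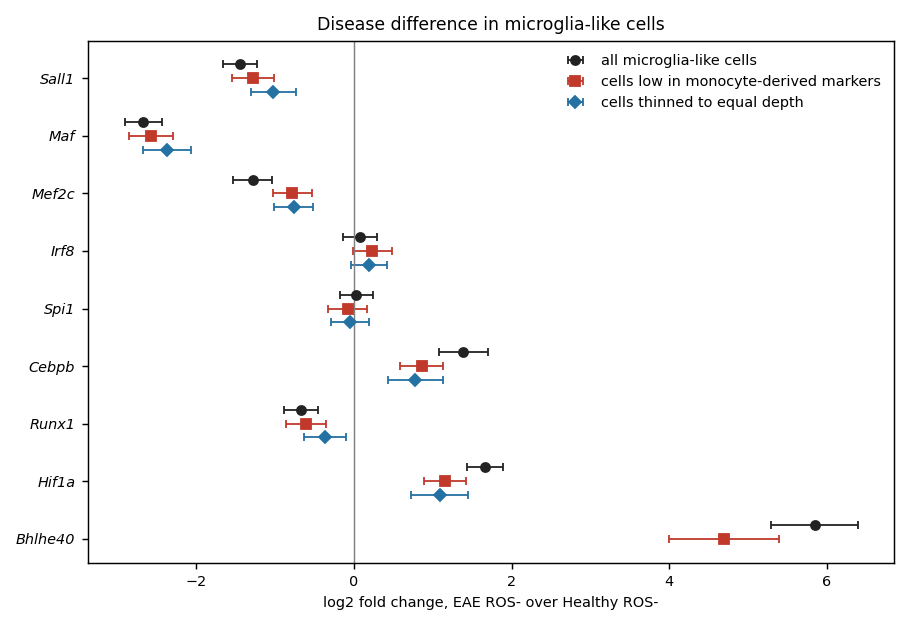
Log2 fold change of each factor in microglia-like cells, EAE ROS- over Healthy ROS-, with bars of 1 standard error, from all microglia-like cells (black circles), cells low in monocyte-derived markers (red squares) and cells thinned to 2000 UMIs and classed again (blue diamonds). Maf and Sall1 stay left of 0 by over 2 and over 1 log2 units in all 3, Irf8 and Spi1 sit near 0, and Bhlhe40 has no thinned value.

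The other genes of these pathways were read in the same microglia-like comparison. Of 18 genes of the hypoxia response that HIF-1α drives 17 were tested, and 12 rose and 0 fell in EAE ROS-, with a median log2 change of 1.90 against -0.03 over all genes. Vegfa, an angiogenic growth factor, had 59.2 and 59.0 CPM in EAE ROS- and 0.455 and 1.43 CPM (2 and 1 UMIs) in Healthy ROS-. The glycolytic enzyme gene Ldha had 669 and 923 CPM in EAE ROS- and 168 and 138 CPM in Healthy ROS-, a log2 change of 2.58 (SE 0.236, edgeR adjusted p = 1.09e-07). Neither gene overlapped between the groups.

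Of 14 genes that PU.1 activates in macrophages, 4 rose and 1 fell, with a median log2 change of 0.34, a count to be read against the 32.9% of all genes that passed. Cybb, which encodes the membrane-bound catalytic chain of NADPH oxidase, had 457 and 327 CPM in EAE ROS- and 9.33 and 10.0 CPM in Healthy ROS-, a log2 change of 5.62 (SE 0.39, edgeR adjusted p = 2.72e-09). Of 41 other myeloid transcription factors 35 were tested, 7 rose and 11 fell, with a median of -0.29. The interferon factor Irf7 had 183 and 190 CPM in EAE ROS- and 10.0 and 5.74 CPM in Healthy ROS- (log2 change 4.60, SE 0.284, edgeR adjusted p = 6e-10). Klf2, a quiescence factor, had 148 and 230 CPM in EAE ROS- and 2208 and 1173 CPM in Healthy ROS- (log2 change -2.95, SE 0.284, edgeR adjusted p = 2.1e-07).

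Immediate-early and stress genes, which respond to tissue dissociation within minutes, moved with the same comparison. Of 12 tested, 10 fell and 0 rose in EAE ROS-, with a median log2 change of -1.47. Jun had 356 and 520 CPM in EAE ROS- and 3215 and 3062 CPM in Healthy ROS-. Their part in the members' differences was not tested.

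Summed over all cells, EAE ROS- differed from Healthy ROS- in 6 of the 9 members, 3 higher and 3 lower, where 34% of 13631 genes passed. Sall1 had 29.6 and 14.8 CPM in EAE ROS- and 177 and 164 CPM in Healthy ROS- (log2 change -2.46, SE 0.331, edgeR adjusted p = 0.000666). Mef2c had 93.6 and 40.5 CPM in EAE ROS- and 413 and 434 CPM in Healthy ROS- (log2 change -2.19, SE 0.408, edgeR adjusted p = 0.0035). Maf fell too (-2.92, SE 0.288, edgeR adjusted p = 0.000129), and Cebpb (2.55), Hif1a (2.89) and Bhlhe40 rose. These sums mix cell types: microglia-like cells made up 38.8% and 17.1% of EAE ROS- cells and 98.1% and 86.1% of healthy cells. In EAE ROS- those cells carried 74.9% and 67.6% of the Sall1 UMIs but 44.3% and 17.2% of all UMIs. For Bhlhe40, 3549 UMIs in the EAE ROS- libraries stood against 5 in the healthy ones, a ratio of CPM of 137 with an exact counting interval of 58.7 to 423. Spi1 (log2 change 0.54, edgeR adjusted p = 0.0857), Runx1 (-0.34, adjusted p = 0.273) and Irf8 (0.00, adjusted p = 0.993) did not pass.

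Between the dye gates, Sall1 was the member that differed, beside a different cell makeup of the libraries. Over all cells 1 of the 9 members passed, where 2.16% of 13631 genes did: Sall1 had 2.99 and 1.88 CPM (70 and 29 UMIs) in EAE ROS+ and 29.6 and 14.8 CPM in EAE ROS-. Its log2 change was -2.98 (SE 0.358, edgeR adjusted p = 0.00411), and microglia-like cells were 2.29% and 0.985% of EAE ROS+ cells against 38.8% and 17.1% of EAE ROS- cells. Mef2c had 24.8 and 12.8 CPM in EAE ROS+ and 93.6 and 40.5 CPM in EAE ROS-, with no overlap. Its log2 change of -1.64 (SE 0.403) missed the threshold (edgeR adjusted p = 0.08). Mef2c did pass with the replicate block (edgeR adjusted p = 0.0117) and under DESeq2 (adjusted p = 0.0115). The other 7 members had log2 changes between -0.11 (Irf8) and 0.67 (Cebpb), and none passed.

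Within a cell class, no member passed between the gates. In microglia-like cells 0 of 9 members passed, where 0% of 9524 genes did with edgeR; 440 genes had an unadjusted p under 0.05, and DESeq2 called 1 gene. The EAE ROS+ sums rest on 40 and 22 cells, and the SEs of the members ran from 0.22 to 0.512. Sall1 had 41.6 and 52.4 CPM in EAE ROS+ and 50.005 and 58.0 CPM in EAE ROS-, a log2 change of -0.21 (SE 0.299, edgeR adjusted p = 1), and its ranges overlapped. Bhlhe40 had 7.56 and 34.9 CPM (4 and 6 UMIs) in EAE ROS+ and 34.4 and 49.2 CPM in EAE ROS-, the 1 member with an unadjusted p under 0.05 (log2 change -1.39, SE 0.512, edgeR adjusted p = 0.95). The remaining 7 members had log2 changes between -0.19 (Hif1a) and 0.18 (Cebpb).

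In monocyte-derived-like cells 0 of the 8 members tested passed, where 0% of 11695 genes did with edgeR; 466 genes had an unadjusted p under 0.05 and DESeq2 called 29. Sall1 was too low to be tested there, with 9 and 9 UMIs in EAE ROS+ and 13 and 3 in EAE ROS-. Maf had 54.1 and 41.2 CPM in EAE ROS+ and 36.1 and 23.3 CPM in EAE ROS-. The gates did not overlap for Maf, and the log2 change of 0.73 (SE 0.267, edgeR adjusted p = 0.999) did not pass. Whether the gate difference itself differed between the classes was tested as an interaction, and 0 of 9 members passed, where 0.173% of 12141 genes did. Maf (interaction -0.97, SE 0.324, edgeR adjusted p = 0.473) and Bhlhe40 (-1.06, SE 0.454, adjusted p = 0.744) were nearest.

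Between cell classes within EAE, most of the factors differed. Microglia-like cells differed from monocyte-derived-like cells of the same libraries in 8 of 9 members, 4 higher and 4 lower, where 40.3% of 11414 genes passed. Sall1 had 41.6 and 52.4 CPM in EAE ROS+ microglia-like cells and 50.005 and 58.0 CPM in EAE ROS- ones, against 0.491 and 0.66 CPM in EAE ROS+ monocyte-derived-like cells and 2.6 and 0.426 CPM in EAE ROS- ones. Summed over the 4 libraries that is 499 UMIs against 34, and the level in monocyte-derived-like cells was 66.4-fold lower in CPM with an exact counting interval of 46.9 to 96.9. The pooled sums weight the gates differently in each class, and the interval leaves out the spread between libraries. Fitted within libraries, the log2 difference was 5.53 (SE 0.321, edgeR adjusted p = 9.95e-13), or 46.2-fold.

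Mef2c had 170 and 93.2 CPM in EAE ROS+ and 163 and 144 CPM in EAE ROS- microglia-like cells, against 17.1 and 9.9 CPM in EAE ROS+ and 22.0 and 7.67 CPM in EAE ROS- monocyte-derived-like cells. The classes were far apart in each library, by 3.18 on the log2 scale (SE 0.17, edgeR adjusted p = 2.7e-13). Irf8 was also higher in microglia-like cells, with 541 and 594 CPM in EAE ROS+ and 580 and 603 CPM in EAE ROS-, against 317 and 445 CPM and 351 and 332 CPM in the monocyte-derived-like cells of those gates. Its difference was smaller, 0.48 (SE 0.104, edgeR adjusted p = 0.00056), and was lost without EAE ROS- replicate 2 (adjusted p = 0.0541). Maf, so much lower in EAE than in healthy microglia-like cells, was only 0.55 above monocyte-derived-like cells (SE 0.164, edgeR adjusted p = 0.00934), a call lost under DESeq2 and without EAE ROS- replicate 1 (0.144) or replicate 2 (0.329). In EAE ROS+ replicate 1 Maf ran the other way, with 51.0 CPM (27 UMIs) in microglia-like and 54.1 CPM in monocyte-derived-like cells. Microglia-like cells had more Maf in EAE ROS+ replicate 2 (64.1 against 41.2 CPM) and in EAE ROS- (68.6 and 53.6 against 36.1 and 23.3 CPM).

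Bhlhe40 was the member furthest below the monocyte-derived-like level. Its microglia-like values were 7.56 and 34.9 CPM in EAE ROS+ and 34.4 and 49.2 CPM in EAE ROS-, against 77.1 and 194 CPM and 116 and 215 CPM in monocyte-derived-like cells, a log2 difference of -2.30 (SE 0.157, edgeR adjusted p = 1.91e-11). Cebpb had 1077 and 1450 CPM in EAE ROS+ and 936 and 1320 CPM in EAE ROS- microglia-like cells, against 2316 and 3935 CPM and 2145 and 3431 CPM in monocyte-derived-like cells. The classes did not overlap, and the log2 difference was -1.50 (SE 0.109, edgeR adjusted p = 4.84e-11). Hif1a differed by -1.45 (SE 0.131, edgeR adjusted p = 2.43e-09) and Spi1 by -0.56 (SE 0.101, edgeR adjusted p = 7.62e-05), also lower in microglia-like cells. Runx1 did not pass (-0.18, SE 0.132, edgeR adjusted p = 0.291). Of the 17 hypoxia response genes tested 1 was higher and 13 were lower in microglia-like cells, with a median of -1.33 against 0.00 over all genes. Bhlhe41, the close relative of Bhlhe40, went the other way, with 123 and 146 CPM in EAE ROS+ and 144 and 173 CPM in EAE ROS- microglia-like cells against 9.88 and 7.41 CPM and 7.99 and 7.24 CPM in monocyte-derived-like cells (log2 difference 3.92, SE 0.189, edgeR adjusted p = 4.69e-14).

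**Figure D3:**
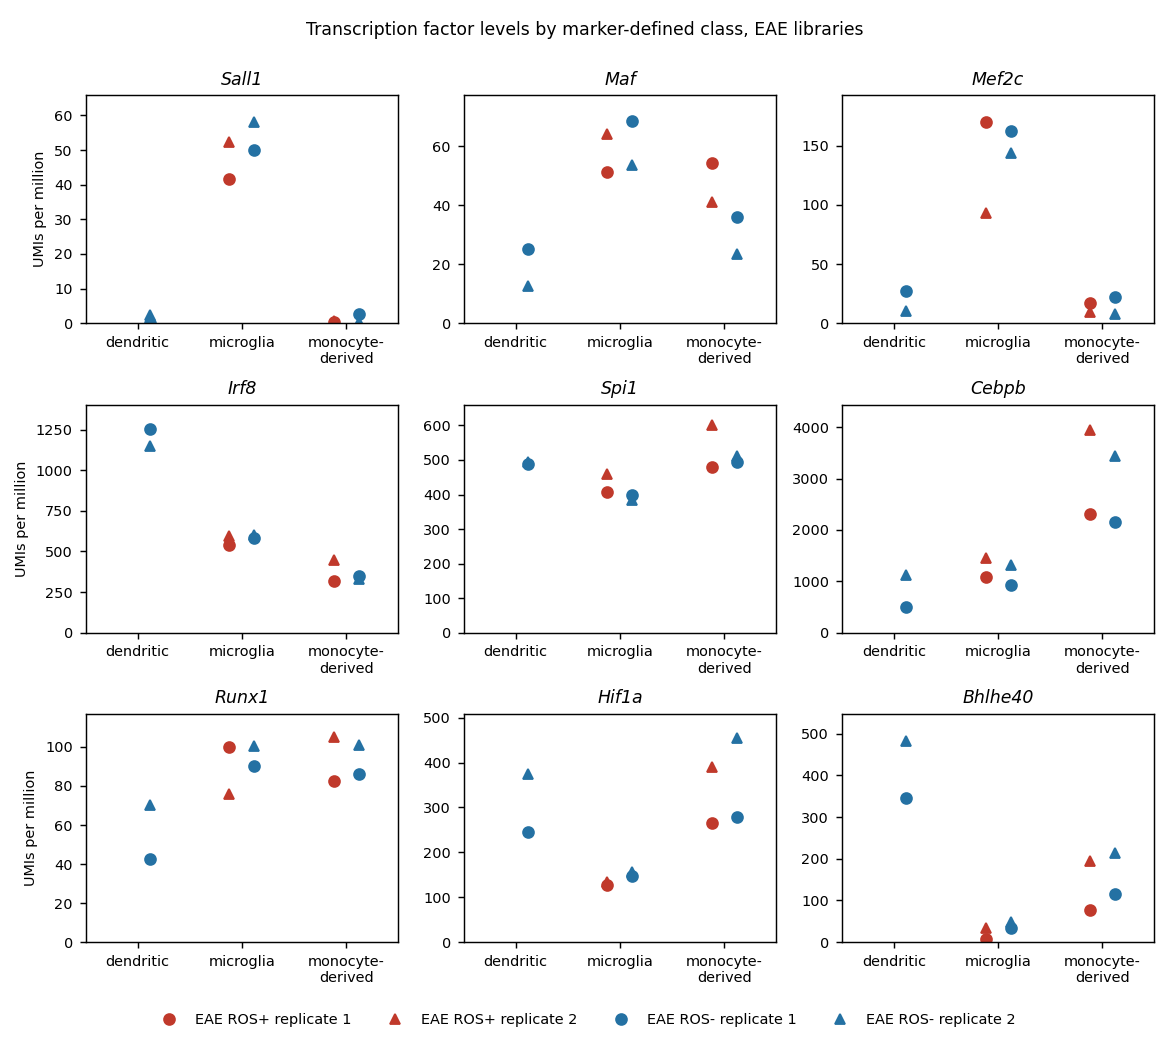
Level of each factor in CPM in dendritic-like, microglia-like and monocyte-derived-like cells of the EAE libraries (red, EAE ROS+; blue, EAE ROS-; circles, replicate 1; triangles, replicate 2). Dendritic-like cells have values from the EAE ROS- libraries only, with 54 and 58 cells; Irf8 and Bhlhe40 are highest there, Sall1 and Mef2c in microglia-like cells, and Cebpb in monocyte-derived-like cells.

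Dendritic-like cells of the EAE ROS- libraries had the highest Irf8 and Bhlhe40 levels of the 3 classes. Against monocyte-derived-like cells 4 of 9 members passed, 2 higher and 2 lower, where 11.7% of 11414 genes did. Against microglia-like cells 7 of 9 passed, 4 higher and 3 lower, where 19.1% did. Markers of the other classes were present in these cells. Of 12 monocyte-derived markers 10 and 11 were detected, and they summed to 31.4 and 36.4 per 10000 UMIs in dendritic-like cells, against 56.9 and 85.7 in monocyte-derived-like cells of the same libraries. Of 10 microglia markers 9 and 10 were detected, and they summed to 15.0 and 8.09 per 10000 in dendritic-like cells, against 95.5 and 92.4 in microglia-like cells, and dendritic markers to 32.5 and 59.8. Their part in the differences below was not tested. Irf8, which directs the conventional type 1 dendritic lineage, had 1252 and 1149 CPM in dendritic-like cells, against 351 and 332 CPM in monocyte-derived-like and 580 and 603 CPM in microglia-like cells of the same libraries. The log2 difference was 1.70 from monocyte-derived-like (SE 0.135, edgeR adjusted p = 1.8e-09) and 1.22 from microglia-like cells (SE 0.134, edgeR adjusted p = 1.82e-07).

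Bhlhe40 had 345 and 483 CPM in dendritic-like cells, against 116 and 215 CPM in monocyte-derived-like and 34.4 and 49.2 CPM in microglia-like cells. It was 2.35-fold and 11.5-fold higher, log2 differences of 1.23 (SE 0.177, edgeR adjusted p = 1.65e-05) and 3.53 (SE 0.188, edgeR adjusted p = 6.93e-13). Cebpb had 502 and 1114 CPM, the 2 libraries differing more than for Irf8, against 2145 and 3431 CPM in monocyte-derived-like cells (log2 difference -1.90, SE 0.154, edgeR adjusted p = 2.5e-09). From microglia-like cells its difference of -0.40 did not pass (edgeR adjusted p = 0.0655), though it did in 6 of 12 alternatives, among them the fits that left out EAE ROS+ replicate 2 (0.0438) or EAE ROS- replicate 2 (0.00908). Runx1 had 42.5 and 70.4 CPM (17 and 28 UMIs), against 86.0 and 101 CPM in monocyte-derived-like cells. Its call (log2 difference -0.80, edgeR adjusted p = 0.0294) was lost in 6 of 12 alternatives, among them the fits without EAE ROS- replicate 1 or 2.

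The microglial factors were near the bottom of their range in dendritic-like cells. Sall1 had 0 and 1 UMIs there against 349 and 119 in microglia-like cells, 41.4-fold lower in CPM with an exact counting interval of 7.39 to 1640. Mef2c had 27.5 and 10.1 CPM (11 and 4 UMIs), a log2 difference of -2.88 from microglia-like cells (SE 0.353, edgeR adjusted p = 1.01e-06). Maf had 25.0 and 12.6 CPM (10 and 5 UMIs), and its difference of -1.42 (SE 0.382, edgeR adjusted p = 0.00909) was lost without EAE ROS- replicate 1 (0.0776) or replicate 2 (0.118). Hif1a was 2.21-fold above microglia-like cells (log2 difference 1.14, SE 0.178, edgeR adjusted p = 3.05e-05). Spi1 was 0.47 above them on the log2 scale (edgeR adjusted p = 0.0182), a call lost in 7 of 12 alternatives, among them the fits without EAE ROS- replicate 1 or 2.

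Most dendritic-like cells, 37 and 52, carried mature dendritic markers (Ccr7, Ccl22 and 3 others). In these, summed per library, Irf8 had 1397 and 1194 CPM, Bhlhe40 had 384 and 515 CPM, and Relb, a factor of dendritic maturation, had 333 and 352 CPM. Cells with type 1 dendritic markers, 9 and 1 in number, had 1150 and 2538 CPM of Irf8. Cells set apart by neither marker list, 8 and 5 in number, had 579 and 569 CPM of Irf8 (27 and 24 UMIs). Microglia-like cells of those libraries had 580 and 603 CPM. Over all dendritic-like cells Relb had 265 and 309 CPM, against 79.6 and 73.9 CPM in monocyte-derived-like cells (log2 difference 1.90, SE 0.188, edgeR adjusted p = 5.65e-08). Of 14 PU.1 target genes 0 were higher and 9 were lower in dendritic-like than in monocyte-derived-like cells, while Spi1 itself had 487 and 493 CPM in dendritic-like and 494 and 510 CPM in monocyte-derived-like cells. Of the 38 other transcription factors tested 11 were higher and 12 lower, Zbtb46 among that list being also a marker of the gate.

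Within monocyte-derived-like cells, most of the factors had their highest level in monocyte-state cells. Cells were split by state lists that hold no member into macrophage-state (C1qa, Apoe and 3 others), Arg1/Nos2-state and monocyte-state (Ly6c2, Plac8 and 4 others) cells. The states are ranges, not types: 253 and 599 cells in EAE ROS+ and 165 and 290 in EAE ROS- lay near the ratio that splits the macrophage and monocyte states. Near the limit of the Arg1/Nos2 state lay 638 and 571 cells in EAE ROS+ and 164 and 323 in EAE ROS-, beside 546 and 727 cells and 134 and 391 cells called in that state. Against monocyte-state cells of the same libraries, 6 of the 8 members tested were lower in macrophage-state cells and 0 higher, where 26.2% of 8833 genes passed. In Arg1/Nos2-state cells 5 of 8 were lower and 0 higher, where 31% passed. Median depth per cell moved with the states, being 9727 and 6168 UMIs in EAE ROS+ and 7498 and 6663 UMIs in EAE ROS- macrophage-state cells, against 6395.5 and 4727 UMIs and 7044.5 and 5721 UMIs in monocyte-state cells.

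Bhlhe40 differed most. It had 72.9 and 139 CPM in EAE ROS+ and 96.6 and 144 CPM in EAE ROS- macrophage-state cells, against 138 and 253 CPM and 240 and 314 CPM in monocyte-state cells, lower in each of the 4 libraries (log2 difference -1.05, SE 0.129, edgeR adjusted p = 9.36e-06). In Arg1/Nos2-state cells it had 70.3 and 157 CPM in EAE ROS+ and 67.0 and 171 CPM in EAE ROS- (log2 difference from monocyte-state -1.02, SE 0.121, edgeR adjusted p = 5.07e-06). Irf8 had 299 and 370 CPM in EAE ROS+ and 354 and 319 CPM in EAE ROS- macrophage-state cells, against 455 and 614 CPM and 397 and 413 CPM in monocyte-state cells. The states did not overlap for Irf8 (log2 difference -0.53, SE 0.098, edgeR adjusted p = 0.000565).

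Spi1 was likewise separated, with 465 and 464 CPM in EAE ROS+ and 472 and 465 CPM in EAE ROS- macrophage-state cells, against 736 and 728 CPM and 568 and 574 CPM in monocyte-state cells (log2 difference -0.51, SE 0.091, edgeR adjusted p = 0.000451). Hif1a (-0.41, edgeR adjusted p = 0.000676) and Runx1 (-0.38, edgeR adjusted p = 0.00655) were lower as well, Hif1a losing its call in thinned cells (0.0614) and Runx1 without EAE ROS+ replicate 2 (0.0618), without EAE ROS- replicate 2 (0.071) and in thinned cells (0.12). Cebpb was lower by 0.51 (edgeR adjusted p = 0.00429), a call lost without EAE ROS+ replicate 1 (0.0593) or replicate 2 (0.0681), and in EAE ROS- replicate 1 it ran the other way, with 2067.5 CPM in macrophage-state and 1844 CPM in monocyte-state cells. Maf had 39.6 and 48.5 CPM in EAE ROS+ but 5.41 and 16.1 CPM (3 and 31 UMIs) in EAE ROS- monocyte-state cells, and did not pass in macrophage-state against monocyte-state cells (log2 difference 0.37, edgeR adjusted p = 0.303), except without EAE ROS+ replicate 2 (1.01, adjusted p = 0.0197). Of the 17 hypoxia response genes tested 10 were higher and 0 lower in Arg1/Nos2-state than in monocyte-state cells, with a median of 0.31, while Hif1a itself was lower by 0.31 (SE 0.075, edgeR adjusted p = 0.00386), a call lost without the low count filter (0.0639) and in thinned cells (0.399).

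**Figure D4:**
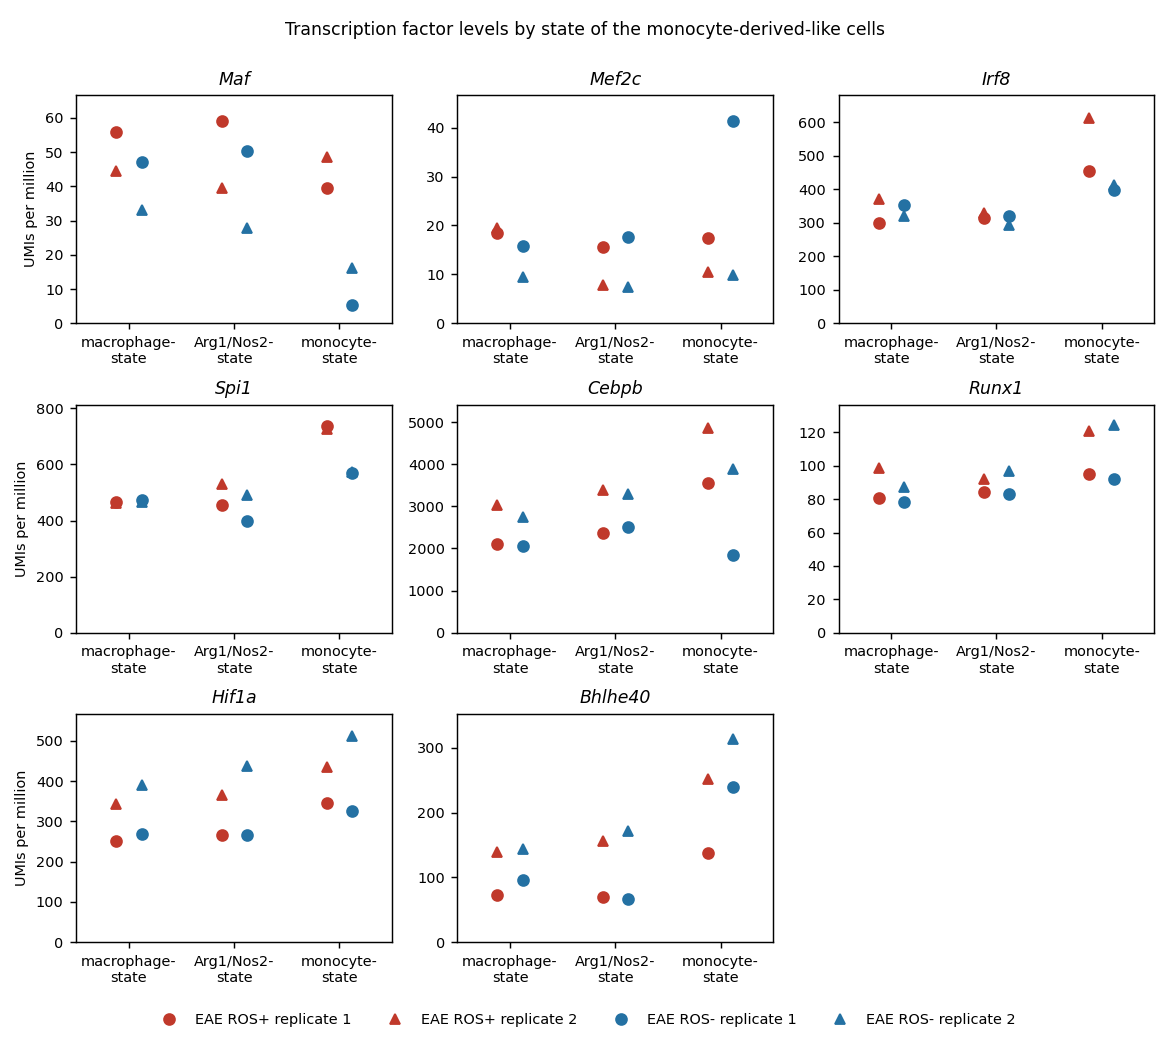
Level of 8 factors in CPM in macrophage-state, Arg1/Nos2-state and monocyte-state cells of the EAE libraries (red, EAE ROS+; blue, EAE ROS-; circles, replicate 1; triangles, replicate 2); Sall1 is left out, with at most 6 UMIs in any of these sums. Irf8 and Spi1 are highest in monocyte-state cells in all 4 libraries, and Bhlhe40 is too.

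Across the 12 sums of a library and class, the levels of some members ran together. The sums share libraries, depth and the class markers, so these correlations of log levels describe the sums only. Hif1a and Bhlhe40 ran together (r = 0.934), as did Sall1 and Mef2c (r = 0.908), while Mef2c and Hif1a (r = -0.963) and Maf and Bhlhe40 (r = -0.94) ran opposite. Among 3392 genes, the closest to Maf were Tnfaip8l2 (r = 0.994), Mef2a and Fam102b (both 0.984), and those close to Mef2c included Fcrls (0.993, a gate marker) and Lmo2 (0.991). Sall1 was closest to Rps6ka1 (0.975), Irf8 to Etv3 (0.948), Spi1 to Csrnp1 (0.885), Cebpb to Alas1 (0.956), Runx1 to Cebpd (0.978), Hif1a to Sh3bgrl (0.982) and Bhlhe40 to Psma7 (0.984).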

How the data were processed

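Spinal cord CD11b+ cells were captured with the Chromium Single Cell 3′ v2 kit, per the labels' protocols. The authors deposited whole-number UMI counts per gene and barcode. The submitters' processing notes name the mm10 build with R 3.4.2, Seurat 3 and Cell Ranger 2.0.1, giving no roles. Cells needed 200 or more genes and no more than 10% of UMIs from mitochondrial genes, which 9078 of 9079 barcodes met, and 0 to 7 barcodes were shared by any pair of libraries. Cells were classed by marker UMIs: microglia-like with at least 6 of 10 microglia markers and 1.5 times the monocyte-derived marker UMIs; monocyte-derived-like with at least 4 of 12 markers and at most 4 microglia markers; dendritic-like with at least 3 of 11 markers and 4 UMIs per 10000. Cells with at least 3 markers of T, neutrophil, endothelial or B cells were excluded. No doublet caller was run, and the classes hold cells with markers of more than 1 class: 347 of 627 and 191 of 262 EAE ROS- microglia-like cells had at least 5 monocyte-derived marker UMIs per 10000. Sums over at least 20 cells were tested with edgeR 4.0.16 (R 4.3.3, filterByExpr with a minimum count of 10), with all 9 members named by rule and other genes only from lists; DESeq2 1.42.0 was an alternative. Each SE was derived from the fitted fold change and its F statistic. Gene names in lists were limited to 4 per list and comparison, at an average log2 CPM of at least 5. Members, lists and class limits were chosen with earlier results of these data known, the 1.5 so that each EAE ROS+ library kept at least 20 microglia-like cells. Simulated data were used to check EAE ROS- against Healthy ROS- in all cells and in microglia-like cells. They were also used for microglia-like against monocyte-derived-like and macrophage-state against monocyte-state cells. The other comparisons were not simulated, and the simulated spread was below that fitted in the disease comparisons. Intervals cover counting error only. Replicates differed by more than sampling noise (chi-square per degree of freedom 2.89 to 74.6).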

Additional observations from a re-analysis of the deposited data

How the results depend on the processing

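Each comparison was refitted under 11 to 15 alternatives. Between the gates over all cells 2 members passed under DESeq2, without the low count filter and with the replicate block, and 1 to 2 when a library was left out; the second was Mef2c. In microglia-like cells, EAE ROS- against Healthy ROS-, 2 members passed in thinned cells, where 618 of 5459 genes were higher and 465 lower. In Arg1/Nos2-state against monocyte-state cells 3 passed without the low count filter. The sign of Irf8 in all cells, EAE ROS- against Healthy ROS-, turned to -0.182 under upper quartile scaling and -0.476 under library total scaling, and ran from -0.104 to 0.139 without 1 library. In microglia-like cells Irf8 was -0.14 under library total scaling and -0.077 to 0.276 without 1 library. Spi1 there was -0.019 under DESeq2, -0.031 under upper quartile scaling, -0.018 with a stricter gate, -0.047 in thinned cells, -0.191 under library total scaling, -0.081 in cells low in monocyte-derived markers and -0.085 to 0.085 without 1 library. The cause was not tested. Scaling by library total was chosen after seeing the data. For EAE ROS- against Healthy ROS- in all cells the median log2 change over all genes was then -0.475, against 0.011 with TMM. Under that scaling 1697 genes were higher and 4013 lower, against 2715 and 1914. The same scaling gave 1302 higher and 2090 lower in microglia-like cells, against 1760 and 1374, and 3241 higher and 1496 lower in microglia-like against monocyte-derived-like cells, against 2279 and 2326. In dendritic-like against microglia-like cells it gave 974 higher and 1336 lower, against 1203 and 980. Equal replicate numbers correlated between the EAE gates at 0.424 over all cells, with only 2 pairs, so pairing was not established; with the replicate block 78 genes were higher and 518 lower between the gates over all cells, against 17 and 278 without it, and in monocyte-derived-like cells 25 and 42, against 0 and 0 without it. The interaction called 21 genes, against 2 under DESeq2 and 0 with the replicate block, which changed the call of no member but Mef2c. Thinned fits between the gates in microglia-like cells, and of the interaction, were not run for want of cells. Low counts limit Sall1 outside microglia-like cells and Bhlhe40 in healthy cord.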
